A study of Homo sapiens with 6 samples.

Results

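Epithelial cells and mesenchymal cells are told apart by a small set of structural genes, and 8 of these were followed in long-read RNA sequencing of Calu-6, an established human lung carcinoma line. They were the simple-epithelial keratins KRT7, KRT8, KRT18 and KRT19, the epithelial adhesion proteins EPCAM and CDH1 (E-cadherin), and the mesenchymal genes VIM (vimentin) and CDH2 (N-cadherin). They were chosen by symbol, and the counts of their transcript models were summed per gene. Of the 8 genes, 6 were among the 10072 genes of the count table, with 28 of its 21472 transcript models. CDH1 and CDH2 had no row.

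Keratins build the intermediate filaments of epithelia as pairs of an acidic type I chain (KRT18 and KRT19 here) and a basic type II chain (KRT7 and KRT8), and KRT8 with KRT18 is the first pair made in simple epithelium. Vimentin builds the same kind of filament alone and is usual in fibroblasts and other mesenchymal cells. In epithelial to mesenchymal transition, cells lose E-cadherin and other junction proteins and gain vimentin and N-cadherin, and many carcinoma lines carry keratins and vimentin together.

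All 6 libraries came from Calu-6 cells whose genotype the labels gave as WT. They were harvested 48 h after transfection with RNAiMAX and 10 nM of a non-silencing siRNA (siControl, 3 libraries) or of an siRNA against the junction of exons 1 and 5 that marks the TERT Delta 2-4 splice variant (siDelta2-4, 3 libraries). The column names carried the word the study uses for a selected population of these cells that stably carried an empty Flag-V5 vector, so both groups may share that vector as well. TERT itself had 0 rows, and its knockdown was not checked here. The study called the libraries of a group biological replicates, while the labels did not say that they came from separate cultures, so the p-values measure the spread between these libraries.

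Total counts were 1106413, 1077555 and 1037468 in siControl and 1309241, 1183889 and 1070009 in siDelta2-4, and the values of a gene are given below in this order. A library is named by its group and its total (highest, middle or lowest), since no replicate number could be tied to it. The siControl library with the lowest total stood apart: over the 3888 genes tested, the mean Pearson correlation of its log2 CPM (counts scaled to a common library size) was 0.978 with the siControl libraries and 0.978 with the siDelta2-4 libraries, whereas each other library had a mean of 0.981 to 0.986 within its own group and 0.973 to 0.976 across. The table was also uneven between the groups, because every row had a count in siDelta2-4, and all 6398 unannotated models had at least 5 counts in each siDelta2-4 library but only 5173 of them in each siControl library.

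The 5 filament genes are relatives, and their messages share a conserved stretch at the end of the rod, the coiled coil through which the chains pair. The 30 coding bases from the start of that stretch (the codons of threonine, tyrosine, arginine, a variable residue, leucine, leucine and glutamate, then 3 more) are shown because reads of one member could in principle be counted on another there. They are read 5′ to 3′ on the coding strand of the Gencode 44 transcripts (GRCh38), and capitals mark the 13 positions at which the 5 genes are not all the same.
KRT7: acctacCgCAAGctgctGgaGgGCGAGgaG
KRT8: acctacAgGAAGctgctGgaGgGCGAGgaG
KRT18: acctacCgCCGCctgctGgaAgATGGCgaG
KRT19: acctacCgCAGCctgctCgaGgGACAGgaA
VIM: acctacAgGAAGctgctGgaAgGCGAGgaG

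The KRT7 stretch lies in exon 7 of KRT7-201 (chr12:52245598-52245627, plus strand), that of KRT8 in exon 6 of KRT8-218 (chr12:52898684-52898713, minus strand) and that of KRT18 in exon 6 of KRT18-201 (chr12:52952305-52952334, plus strand). The KRT19 stretch lies in exon 6 of KRT19-201 (chr17:41523782-41523811, minus strand) and that of VIM in exon 6 of VIM-201 (chr10:17235355-17235384, plus strand). KRT8 and VIM shared 29 of the 30 bases and KRT8 and KRT18 shared 20. Over the whole coding sequences the identities were 64.1% for KRT8 with VIM, 64.6% for KRT8 with KRT18 and 76.1% for KRT8 with KRT7.

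Retrocopies are a second kind of relative. Gencode 44 lists 124 pseudogenes named for KRT18 (68), KRT8 (51) and KRT19 (5), and the 30 bases above occurred unaltered in 6 of the KRT18 copies and 11 of the KRT8 copies. Only 2 of the 124, KRT8P3 with 3 counts and KRT8P45 with 1, had a row in the table. Adding them to their parent left the KRT8 log2 fold change at 0.0062 with an adjusted p of 0.986 in edgeR's quasi-likelihood test.

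KRT18, VIM and KRT8 were abundant, and the other 3 genes were close to the limit of detection. KRT18 had 1124 counts and ranked 782nd of the 10072 genes, VIM had 987 counts and ranked 860th, and KRT8 had 824 counts and ranked 955th. KRT7 had 41 counts, EPCAM 13 and KRT19 1. The 6 genes together took 0.0395% to 0.0521% of the counts of a library.

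Per kilobase of counted model, the mean level over the 6 libraries was 122 CPM per kb for KRT18 (SD 10.4, range 112 to 137), 111 for VIM (SD 13.1, range 94.5 to 127) and 77.4 for KRT8 (SD 7.0, range 70.1 to 87.7). Over all 6 libraries the ranges of KRT18 and VIM overlapped, while every library of both lay above every KRT8 value on this scale. In CPM without that division, the ranges of VIM (125 to 167) and KRT8 (111 to 139) overlapped. In siControl alone KRT18 and VIM did not overlap, with KRT18 at 163, 155 and 161 CPM and VIM at 146, 127 and 125 CPM. In siDelta2-4 they did, at 154, 188 and 183 CPM for KRT18 and 153, 167 and 158 CPM for VIM. KRT7 followed at 7.38 CPM per kb (range 3.56 to 10.3), EPCAM at 1.23 (range 0.619 to 1.89) and KRT19 at 0.0974 (range 0 to 0.585), with no overlap between these neighbours.

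**Figure D1:**
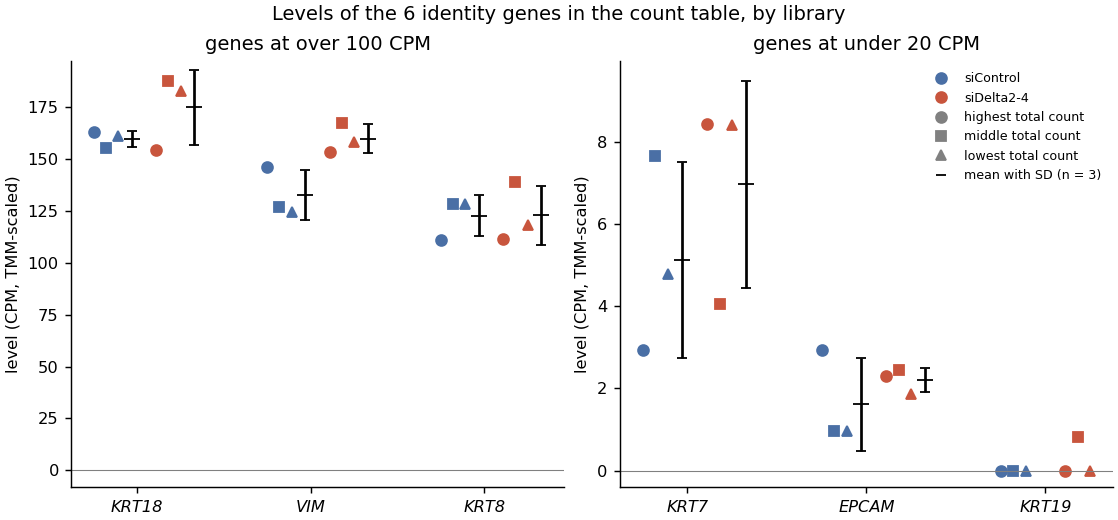
Level of each gene in CPM (on TMM-scaled totals) in the 3 siControl (blue) and 3 siDelta2-4 (red) libraries, with the shape giving the rank of the library's total count and the black bar the mean and SD of a group (none for KRT19, which had 1 count). The left panel holds KRT18, VIM and KRT8, all between 111 and 188 CPM. The right panel holds KRT7, EPCAM and KRT19, none above 8.44 CPM. Only for VIM do the 2 groups not overlap, and its counts include unannotated models that were kept by their siDelta2-4 counts.

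In siControl cells, which give the baseline, the mesenchymal filament gene and the epithelial pair were therefore counted side by side. The VIM values here leave out the 994 counts on VIM-AS1. As set out below, reads of VIM and VIM-AS1 cannot be told apart with certainty. With those counts added, the ratios of VIM to the keratins would be higher. The ratio of VIM counts to the summed KRT8 and KRT18 counts was 0.534, 0.446 and 0.430 in siControl and 0.578, 0.512 and 0.526 in siDelta2-4, so the groups overlapped. KRT18 exceeded KRT8 in every library, by 1.46, 1.21 and 1.25 times in siControl and by 1.39, 1.35 and 1.55 times in siDelta2-4 as counts, and these ratios overlapped too. In bulk samples such as these, fewer cells with a gene and less RNA per cell cannot be told apart.

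KRT18 (ENSG00000111057.11, chr12:52948871-52952906, plus strand), the type I chain of the pair, was counted 167, 162 and 168 times in siControl and 201, 231 and 195 times in siDelta2-4. On TMM-scaled totals these were 163, 155 and 161 CPM against 154, 188 and 183 CPM, with the siDelta2-4 library of highest total below all 3 siControl libraries and the other 2 above them. The group means were 160 ± 3.88 and 175 ± 18 CPM (SD, n = 3 each). The log2 fold change of siDelta2-4 over siControl was 0.13 ± 0.11 (SE), with a 95% interval of -0.11 to 0.36 and an adjusted p of 0.541 in edgeR's quasi-likelihood test, and KRT18 was not called.

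Of the KRT18 counts, 773 lay on the annotated 7-exon KRT18-201 and 339 on 4 unannotated models. With known models alone the KRT18 log2 fold change was 0.00091. The unannotated share of its counts was 25.1%, 28.4% and 29.2% in siControl and 31.3%, 31.6% and 33.8% in siDelta2-4. These shares did not overlap, and the exact two-sided permutation p was 0.1, the smallest that 3 libraries against 3 can give, or 0.25 after Benjamini-Hochberg adjustment over the 5 shares compared. The model that differed most among those tested was a 7-exon form of 1408 bases, counted 9, 9 and 11 times in siControl and 16, 19 and 22 times in siDelta2-4 (log2 fold change 0.79 ± 0.33, edgeR adjusted p = 0.192). The table kept unannotated models by their siDelta2-4 counts, and the 4 of KRT18 also had at least 5 counts in each siControl library. With the row rule applied to both groups the KRT18 log2 fold change was 0.13 (edgeR adjusted p = 0.536). The part of that rule in this difference was not tested for single models.

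KRT8 (ENSG00000170421.13, chr12:52897187-52949954, minus strand), the type II partner, was counted 114, 134 and 134 times in siControl and 145, 171 and 126 times in siDelta2-4. The group means were 123 ± 9.98 and 123 ± 14.4 CPM, with siControl between 111 and 128 CPM and siDelta2-4 between 111 and 139 CPM. The log2 fold change was 0.00038 ± 0.12 (95% interval -0.25 to 0.25, edgeR adjusted p = 1.0). The interval spans changes of both signs, and the sign of this value moved with the processing.

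The KRT8 counts joined models from separate places. The 8-exon KRT8-218 (chr12:52897191-52905076, 569 counts) carries the coding sequence of 1449 bases. A further 166 counts lay on the annotated 3-exon models KRT8-214 (71), KRT8-217 (69) and KRT8-212 (26), which lie at least 41537 bases away, share 0 exonic bases with KRT8-218 and run across the first exon of KRT18-201 on the opposite strand. In that exon, 123 of the 507 bases of KRT8-214, 130 of the 592 of KRT8-212 and 62 of the 2437 of KRT8-217 overlap KRT18-201. Most of their exonic bases thus lie outside the exons of KRT18-201. KRT8-217 has a coding sequence of only 96 bases. Whether strand was used in counting was not given in the sources used here. These reads therefore cannot be told apart with certainty from reads of the KRT18 strand at the same place.

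**Figure D2:**
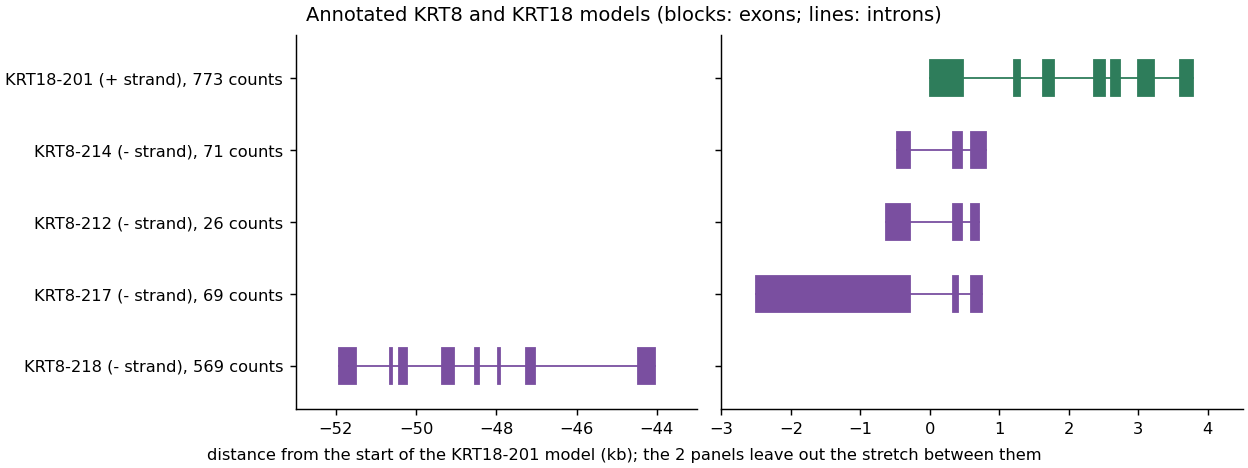
Exons (blocks) and introns (lines) of 4 annotated KRT8 models (purple, minus strand) and of KRT18-201 (green, plus strand), by distance in kb from the start of KRT18-201, with the summed counts of the 6 libraries beside each name. The 3-exon KRT8 models with 71, 26 and 69 counts lie over the start of KRT18-201, and KRT8-218 with 569 counts lies to their left, beyond a stretch that is left out.

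The 3-exon models were counted 28, 35 and 22 times in siControl and 33, 32 and 16 times in siDelta2-4, or 22.4% ± 5.21 and 18.1% ± 5.06 of the KRT8 counts (exact two-sided permutation p = 0.4, adjusted 0.5 over the 5 shares). Without them the KRT8 log2 fold change was 0.074 (edgeR adjusted p = 0.804), a setting chosen after seeing the data. The ratio of KRT18 to KRT8 counts then ran from 1.5 to 1.94, in place of 1.21 to 1.55.

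KRT7 (ENSG00000135480.17, chr12:52232520-52252186, plus strand), a type II keratin of simple and glandular epithelia, was counted 3, 8 and 5 times in siControl and 11, 5 and 9 times in siDelta2-4. The groups overlapped, at 5.13 ± 2.39 and 6.98 ± 2.52 CPM, and the gene did not pass the filter on low counts. Of its 41 counts, 37 were on 1 unannotated 4-exon model of 821 bases and 4 on KRT7-212, which has 4 exons and no annotated coding sequence; no KRT7 model of full length had a count. KRT7-AS, annotated on the other strand within KRT7 and named after its values were seen, had 45 counts (7, 2 and 5, then 9, 14 and 8), all on an unannotated 4-exon model of 827 bases, 6 bases longer than the KRT7 model. In CPM its groups did not overlap, at 4.51 ± 2.47 and 8.59 ± 2.43 CPM. With KRT7-AS added, a setting chosen after seeing the data, KRT7 had a log2 fold change of 0.68 ± 0.31 (edgeR unadjusted p = 0.0370, adjusted p = 0.181) and was not called. Both unannotated models had at least 5 counts in each siDelta2-4 library but not in each siControl library. Unannotated models were kept by their siDelta2-4 counts, so the non-overlap and this unadjusted p rest on rows selected by that group.

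KRT19 (chr17:41523617-41528308, minus strand), the shortest keratin, had 1 count, in the siDelta2-4 library of middle total. EPCAM (chr2:47345158-47387601, plus strand), a cell adhesion protein of most simple epithelia and carcinomas, was counted 3, 1 and 1 times in siControl and 3, 3 and 2 times in siDelta2-4, all on EPCAM-201. At 1.61 ± 1.14 and 2.20 ± 0.295 CPM a difference between the groups was not detectable at this depth.

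CDH1 (chr16:68737292-68835537), the adhesion receptor of epithelial adherens junctions, and CDH2 (chr18:27932879-28177946), its counterpart in mesenchymal and neural cells, had no row. Every row held at least 1 siDelta2-4 count, so the absence of a row states only that no siDelta2-4 count was listed and leaves their siControl counts unknown. Their canonical transcripts are long, at 4811 and 4016 bases. Among annotated protein-coding genes of 4000 to 5000 bases, 27.0% of 2125 had a row and 4.09% had at least 100 counts. For genes of 1000 to 2000 bases, the class of KRT8, KRT18, KRT19, KRT7 and EPCAM, these shares were 38.7% and 13.2%. The share with a row did not fall steadily with length, being 32.9% under 1000 bases and 20.6% above 5000 bases, whereas the share with at least 100 counts fell from 20.1% to 2.87% over the same classes. The part of length in the absence of both cadherins was not tested.

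VIM (ENSG00000026025.16, chr10:17228241-17237593, plus strand) was counted 150, 132 and 130 times in siControl and 200, 206 and 169 times in siDelta2-4. On TMM-scaled totals it lay at 146, 127 and 125 CPM in siControl and at 153, 167 and 158 CPM in siDelta2-4, so every siDelta2-4 library was above every siControl library. The means were 132 ± 12.0 and 160 ± 7.07 CPM (SD, n = 3 each). The log2 fold change was 0.27 ± 0.12 (SE, 95% interval 0.033 to 0.51), with an unadjusted p of 0.0271 and an adjusted p of 0.149 in edgeR's quasi-likelihood test, so VIM was not called at the threshold of 0.1. Unannotated models were kept by their siDelta2-4 counts, and some VIM models fell below 5 counts in siControl libraries. Examples are the models of 719 bases (3, 1 and 2 counts, then 12, 9 and 7) and 1461 bases (5, 4 and 3, then 12, 9 and 13). The non-overlap and this unadjusted p thus rest in part on rows selected by the group where they are high. With the row rule applied to both groups the edgeR unadjusted p was 0.213.

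Among the 3 members that passed the filter on low counts, 0 were called by edgeR, 1 (VIM) had an unadjusted p under 0.05, 1 (VIM) did not overlap between the groups, and DESeq2 called 0. Over all 3888 genes tested the shares were 13.0% called, 23.1% with an unadjusted p under 0.05 and 26.0% without overlap. Of their 12 models tested, 0 were called, with 1 at an unadjusted p under 0.05 (the KRT18 form of 1408 bases), against 6.91% of 6768 models called in all. For transcript usage within a gene the count was 0 of 3 (adjusted p of 0.665 for KRT18, 0.871 for VIM and 0.929 for KRT8 in edgeR's test), against 0.618% of 1132 genes.

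The VIM value moved with the scaling and with the models counted. With library totals as the only scaling its log2 fold change was 0.34 (edgeR adjusted p = 0.0644, called), with the row rule applied to both groups 0.15 (adjusted p = 0.481), with known models alone 0.17 (adjusted p = 0.635), and with a trend of counts on transcript length removed 0.10 (adjusted p = 0.686). It stayed above 0 in each of the 19 alternatives. Without the siControl library that stood apart, the log2 fold changes were 0.21 for VIM, 0.11 for KRT18 and 0.011 for KRT8, with edgeR adjusted p-values of 0.239, 0.550 and 0.963.

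**Figure D3:**
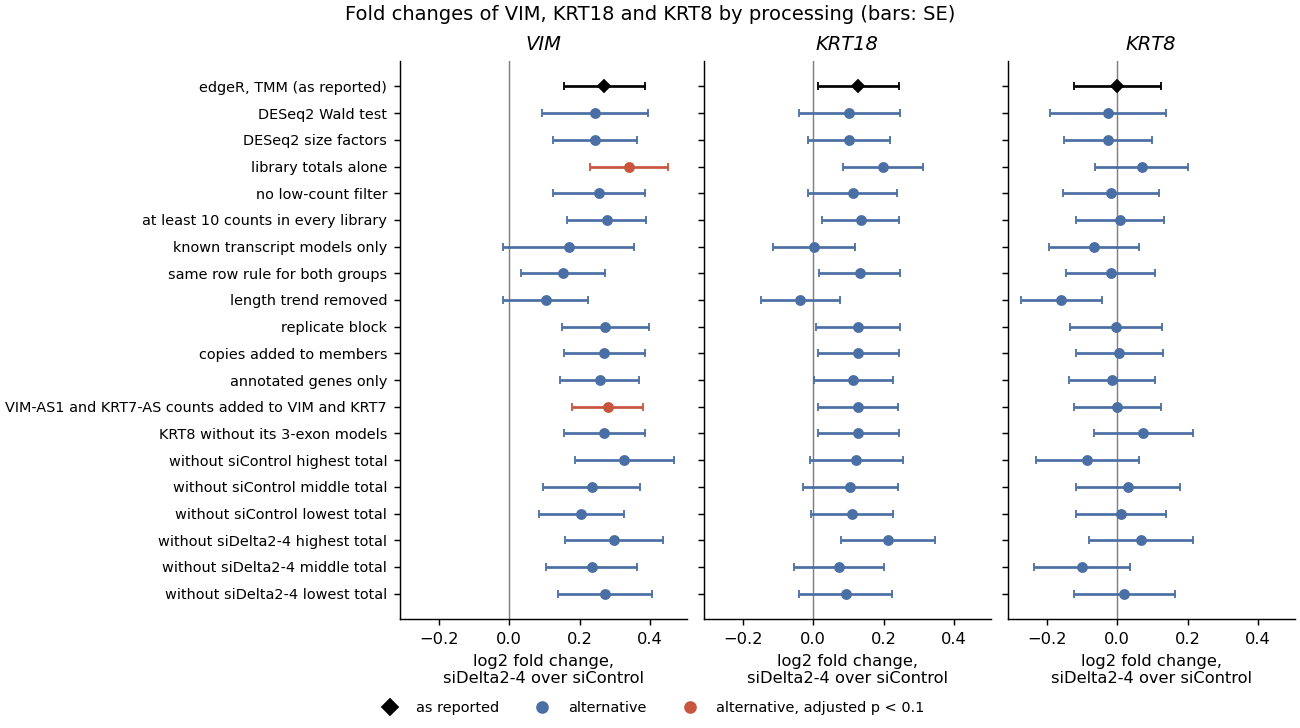
Log2 fold change of siDelta2-4 over siControl for VIM, KRT18 and KRT8 as reported (black diamond) and under each alternative (circles), with bars of 1 SE. Each VIM point lies right of 0, between 0.10 and 0.34, and the 2 red points are those with an adjusted p under 0.1, while the KRT8 points fall on both sides of 0.

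Most VIM counts were not on the annotated transcript. VIM-201, of 9 exons and 1868 bases, held 303 of the 987 counts (48, 44 and 38 in siControl and 65, 66 and 42 in siDelta2-4), and 9 unannotated models held the other 684 counts, or 69.3%. Of these 9 models, 7 were labelled in the table as incomplete matches of the suffix kind, which hold only the 3′ part of a longer exon chain. The lengths of 8 of the 9 were within 12 bases of the summed length of as many last exons of VIM-201, and the exception was a 7-exon model of 1461 bases, 362 bases longer than the last 7 exons. Models with all 9 exons held 52.7%, 51.5% and 47.7% of the siControl counts of VIM and 48.0%, 49.5% and 39.1% of its siDelta2-4 counts, and the groups overlapped (exact two-sided permutation p = 0.3, adjusted 0.5).

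VIM-AS1 (ENSG00000229124.8, chr10:17214239-17230018, minus strand), a long non-coding RNA gene that overlaps the 5′ part of VIM on the other strand, had almost the same total as VIM, at 994 counts. It was counted 154, 125 and 133 times in siControl and 220, 179 and 183 times in siDelta2-4, or 132 ± 15.8 and 162 ± 14.3 CPM, and here the groups overlapped, since the siDelta2-4 library of middle total (145 CPM) lay below the siControl library of highest total (150 CPM). Its log2 fold change was 0.29 ± 0.12 (edgeR adjusted p = 0.140), close to that of VIM.

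The VIM-AS1 models matched VIM in structure. Of the 994 counts, 987 were on 9 unannotated models of 2 to 9 exons, 7 of them labelled as incomplete matches of the prefix kind, and the length of each was within 21 bases of the summed length of as many last exons of VIM-201. Models of 9 exons held 452 of these counts, those of 4 exons 200, and those of 2 exons 71, against 473, 223 and 57 for VIM. The only annotated model, VIM-AS1-204, had 7 counts and lies at chr10:17214239-17216375, outside VIM. Over the whole table, models placed antisense by TALON held 22.0% of the counts. Without the strand of counting, reads of VIM and of VIM-AS1 cannot be told apart with certainty.

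**Figure D4:**
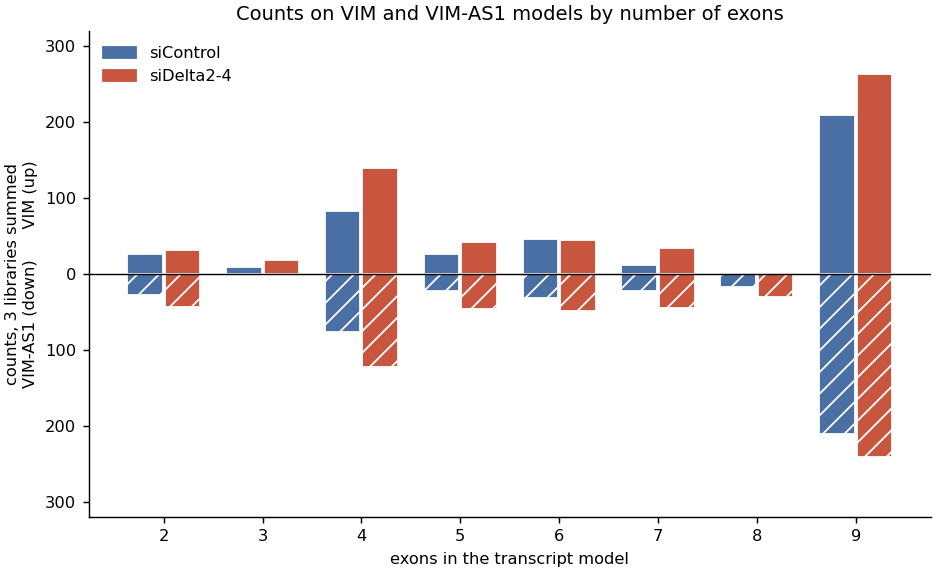
Counts on transcript models of VIM (solid bars, upward) and of VIM-AS1 (hatched bars, downward) by the number of exons in the model, summed over the 3 siControl (blue) and 3 siDelta2-4 (red) libraries; VIM-AS1-204 is left out. Both genes peak at 9 exons (473 and 452 counts in all) and again at 4 exons (223 and 200), with VIM alone at 3 exons and VIM-AS1 alone at 8.

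Adding VIM-AS1 to VIM, a setting chosen after seeing the data, gave a log2 fold change of 0.28 and an adjusted p of 0.0906 in edgeR's quasi-likelihood test, just past the threshold that VIM alone missed. The 9-exon shares of the VIM-AS1 counts did not overlap between the groups, at 51.1% ± 5.01 in siControl against 41.3% ± 4.21 in siDelta2-4 (p = 0.1 in the same exact permutation test, adjusted 0.25). Of the VIM-AS1 counts, 987 lay on unannotated models, which the table kept by their siDelta2-4 counts. The part of that rule in these shares and in the combined VIM value was not tested.

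The genes most like each abundant member over the 6 libraries were sought among the 542 annotated genes that code for protein and reached 100 counts in every library. For VIM they were THOC7 (Pearson r of log2 CPM 0.971), PSMB6 (0.969) and MT2A (0.948), for KRT18 they were PRDX3 (0.875), SPCS1 (0.841) and B2M (0.837), and for KRT8 they were NUTF2 (0.901), CENPT (0.804) and RBMS2 (0.792). With each other the members had r values of 0.43 for KRT8 and KRT18, 0.70 for VIM and KRT18 and -0.093 for VIM and KRT8. Each value rests on 6 libraries that share both groups and their depth, and the highest of 542 such values is high by selection.

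Other genes of epithelial cells were followed as a list. Of 75 listed genes (other keratins, adherens and tight junctions, desmosomes, surface proteins and their regulators), 16 had a row and 4 passed the filter. By class, 3 of 8 adherens junction genes had a row with 7 counts in all, 5 of 15 tight junction genes with 25 counts, and 1 of 10 desmosome genes with 1 count. Among those with a row, CTNNA1, CTNNB1, OCLN and DSG2 have canonical transcripts of 3754, 3661, 6181 and 5697 bases, and CLDN7 one of 1542. Of protein-coding genes of 3000 to 4000 bases 4.16% reached at least 100 counts, and of those above 5000 bases 2.87%. The part of length in these low counts was not tested. The classes with more counts were surface proteins and regulators (5 of 27 genes, 682 counts) and other keratins (2 of 15 genes, 172 counts).

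SPINT2, an inhibitor of membrane serine proteases, had the most counts among them (434), with 68.7 ± 20.3 CPM in siControl and 61.3 ± 3.16 in siDelta2-4. KRT10, a type I keratin best known from the epidermis, had 171 counts, and CD9, a tetraspanin found on many cell types, had 151. None of the 4 genes tested (these and AP1M2) was called by edgeR or DESeq2 or had an unadjusted p under 0.05. Over all genes tested, 13.0% were called by edgeR and 23.1% had an unadjusted p under 0.05. Of the 4 genes 1 was higher and 3 lower, and their median log2 fold change was -0.18, beside 0.027 over all genes tested. KRT10-AS1, on the other strand at KRT10, had 216 counts, so the KRT10 counts carry the same limit as those of VIM.

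Of 67 listed genes of mesenchymal cells and of the epithelial to mesenchymal transition, 26 had a row and 8 passed the filter. By edgeR 3 of the 8 rose, 1 fell and 4 were not called, beside 13.0% of all genes tested called, and DESeq2 called 1 of them. An unadjusted p under 0.05 was reached by 5 of the 8, beside 23.1% of all genes tested, and their median log2 fold change was 0.36, beside 0.027. The lists were chosen with earlier results of these data known. These comparisons with all genes are therefore descriptive, and no enrichment is claimed from them. The 11 regulators (the ZEB, SNAI and TWIST factors and others) had 10 counts in all, on 3 genes. The most counted genes were TIMP1, an inhibitor of matrix metalloproteinases (1471 counts, log2 fold change 0.049 ± 0.12, edgeR adjusted p = 0.851), EMP3, a small membrane protein (927 counts), and CD44, the hyaluronan receptor (492 counts, -0.20 ± 0.15, adjusted p = 0.442). SPARC, a matrix glycoprotein named after its values were seen, was the gene with an unadjusted p under 0.05 that was not called (42.7 ± 4.5 against 57.6 ± 2.03 CPM, log2 fold change 0.43 ± 0.17, edgeR adjusted p = 0.131).

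The 3 that rose were a pair of tropomyosins, which wind along actin filaments, and a secreted matrix protein. TPM1 was counted 9, 14 and 16 times in siControl and 40, 34 and 34 times in siDelta2-4, with no overlap in CPM and a log2 fold change of 1.25 ± 0.27 (edgeR adjusted p = 0.00418). TPM2 had 39, 49 and 72 counts and then 126, 93 and 90, with a log2 fold change of 0.74 ± 0.18 (edgeR adjusted p = 0.0115). TGFBI, named for its induction by TGF-beta, had 12, 19 and 15 counts and then 34, 37 and 25, with a log2 fold change of 0.84 ± 0.27 (edgeR adjusted p = 0.0489).

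EMP3 fell by 0.36 ± 0.12 on the log2 scale (edgeR adjusted p = 0.0681), from 165, 178 and 145 counts to 155, 137 and 147, which is 157 ± 16.3 against 123 ± 13.5 CPM with no overlap. TPM2 was called in all 19 alternatives and TPM1 in 17 of 18, the other being DESeq2, which gave it no adjusted p; in the alternative with at least 10 counts in every library it was not tested. TGFBI lost its call without the siControl library of highest total (adjusted p = 0.193), without the siDelta2-4 library of highest total (0.114) or of middle total (0.193), all by edgeR, and DESeq2 gave it no adjusted p. EMP3 lost it in 9 of 19 alternatives, among them the DESeq2 Wald test (adjusted p = 0.109), the replicate block (0.126, edgeR) and those without the siControl library of highest (adjusted p = 0.131) or middle total (0.279) or the siDelta2-4 library of highest (0.204) or middle total (0.276), all by edgeR.

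**Figure D5:**
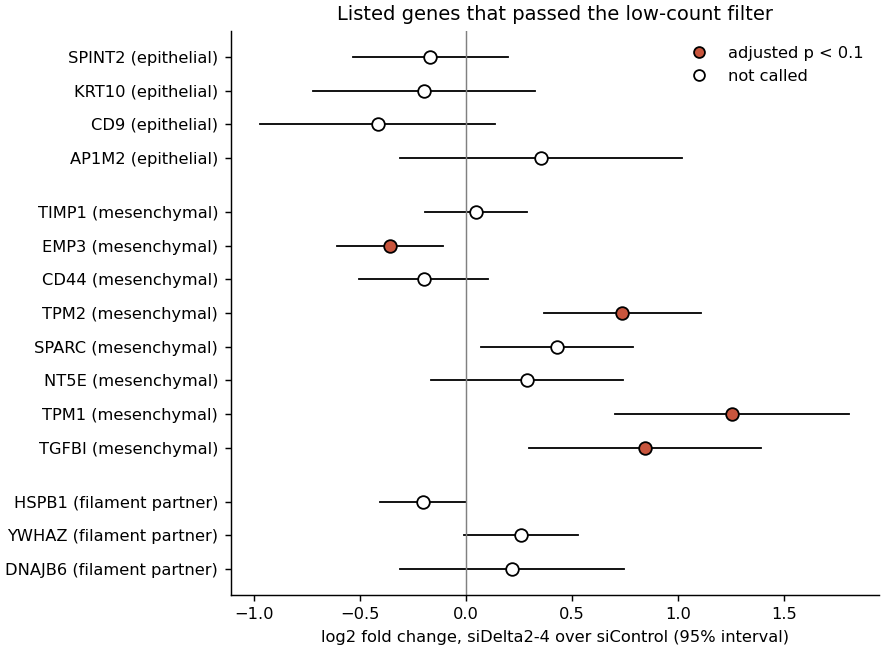
Log2 fold change of siDelta2-4 over siControl with its 95% interval for the 15 listed genes that passed the filter on low counts, with filled circles for an adjusted p under 0.1. TPM1 (1.25), TGFBI (0.84) and TPM2 (0.74) lie right of 0 and EMP3 (-0.36) left of it, while the intervals of the 4 epithelial genes all include 0.

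Proteins that bind intermediate filaments, and other filament proteins, made a further list of 27 genes, of which 6 had a row and 3 passed the filter. By edgeR 0 of the 3 were called, with 0 at an unadjusted p under 0.05, and DESeq2 also called 0. Over all genes tested, 13.0% were called by edgeR, 23.1% had an unadjusted p under 0.05 and 26.0% did not overlap between the groups. Of the 3 genes 2 were higher and 1 lower, with a median log2 fold change of 0.22. HSPB1, the small heat shock protein HSP27, had 2020 counts and 323 ± 22.7 against 281 ± 9.80 CPM, without overlap (log2 fold change -0.20 ± 0.099, edgeR adjusted p = 0.217), and without the siControl library of lowest total its adjusted p was 0.0385. YWHAZ, a 14-3-3 protein, had 678 counts and 91.2 ± 4.78 against 109 ± 10.2 CPM, also without overlap but in the other direction (log2 fold change 0.26 ± 0.13, adjusted p = 0.231). DNAJB6, a co-chaperone that binds keratins, had 174 (0.22 ± 0.26, adjusted p = 0.659).

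Markers of other cells that a lung tumour sample might hold were near 0. Of 15 genes of lung epithelium, 4 of endothelium and 5 of neuroendocrine cells, 0 had a row. Of 5 fibroblast genes 2 had a row, with 13 counts in all, of which LUM, a matrix proteoglycan, had 12, and of 6 blood cell genes 2 had a row with 10 counts. Of the defining genes of simple epithelium, the KRT8 and KRT18 pair was thus abundant in these cells, labelled as lung cancer cells. KRT7 had 41 counts, and EPCAM and KRT19 were at or near 0. CDH1 had no row, which leaves its siControl counts unknown.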

How the data were processed

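The deposited table gave, for each transcript model, its length in bases and the unnormalised count of long reads in each of the 6 libraries. Per the labels and the study's methods, the authors sequenced PCR-cDNA libraries on 1 Nanopore flow cell for 72 h, aligned them to GRCh38.p14 with minimap2 2.14 and SAMtools 1.13, and used TranscriptClean for correction and TALON with Gencode 44 for annotation. An unannotated model needed at least 5 reads in 3 samples.

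Here counts were summed per gene. The gene test was edgeR 4.0.16 under R 4.3.3 (default filterByExpr, TMM, two-sided quasi-likelihood test, Benjamini-Hochberg over all genes tested, called at an adjusted p under 0.1). The SE is the log2 fold change over the root of F. CPM used TMM-scaled totals, and log2 CPM a prior count of 2. Models were tested likewise, and usage with diffSpliceDGE. DESeq2 1.42.0 was an alternative. The scripts were tested on simulated data. Coordinates and sequences came from Gencode 44. Named were all 8 genes, called genes and the 3 most counted of each list, neighbours of at least 100 counts, and the 3 most correlated genes for each abundant member. The genes and lists were chosen with earlier results of these data known.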

Additional observations from a re-analysis of the deposited data

How the results depend on the processing

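Of the 8 genes, 3 passed the filter on low counts as reported, and the others could not be called under it. The number of the 8 called was 0 under 18 of 20 alternatives and 1 (VIM) with library totals alone and with VIM-AS1 and KRT7-AS added. For transcript models it was 0 under 11 of 12 and 1 with no filter on low counts, a 4-exon VIM model of 719 bases counted 3, 1 and 2 times in siControl and 12, 9 and 7 times in siDelta2-4 (log2 fold change 1.95, edgeR adjusted p = 0.0424). This model is unannotated, and every unannotated model listed had at least 5 counts in each siDelta2-4 library. It did not reach 5 in any siControl library, so the call rests on a row selected by the group where it is high. For usage the number was 0 under all 12. No epithelial list gene was called under 13 alternatives. The mesenchymal list had 4 calls as reported, 1 by DESeq2 and 2 to 4 with 1 library left out. The filament partners had 0 as reported, 1 (HSPB1) with the length trend removed and 0 to 1 with 1 library left out.

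The log2 fold change of KRT8 was 0.00038 as reported and turned to -0.026 with the DESeq2 Wald test and with DESeq2 size factors, -0.017 with no low-count filter, -0.065 with known models, -0.019 with the same row rule, -0.16 with the length trend removed, -0.0030 with the replicate block and -0.014 with annotated genes alone, and ran from -0.10 to 0.068 with 1 library left out. That of KRT18, 0.13 as reported, turned to -0.037 with the length trend removed and ran from 0.072 (without the siDelta2-4 library of middle total) to 0.21 (without that of highest total) with 1 library left out. The cause was not tested. VIM ran from 0.10 to 0.34 with edgeR or DESeq2 adjusted p-values of 0.0644 to 0.686, and was past the threshold at 0.34 and 0.28 in the 2 settings above. Per kilobase in place of CPM, the mean ratio of KRT18 to KRT8 levels moved from 1.37 to 1.58 and that of VIM to KRT8 from 1.20 to 1.44.

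Between libraries of the 2 groups with the same number in the column name, correlations were 0.039, -0.14 and -0.084. Those between differently numbered libraries ran from -0.11 to 0.19. These are not the correlations of log2 CPM given above, which had means of 0.973 to 0.978 across groups. They showed no pairing by number but cannot settle whether the numbers mark pairs. With the column numbers as a replicate block, 299 genes were called in place of 504. Among the 3 of the 8 genes that passed the filter, 0 were called, with 0 of their models and 0 for usage. EMP3 lost its call. DESeq2 called 254 genes and gave no adjusted p for 2036. Leaving out 1 library gave 194 to 1041 calls.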
